A study of Mus musculus with 16 samples.

Results

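Potassium channel genes were taken as all genes whose symbol in the array annotation starts with Kcn, followed by letters and a number. The rule found 89 of the 19505 genes on the array, each measured by 1 feature, and used no measured value. Of these, 88 code for channel subunits or proteins named for binding them, and 1, Kcnq1ot1, is a long non-coding RNA that lies within the Kcnq1 gene. Signals were available for all 16 arrays, which came from olfactory mucosa, the sensory lining of the nose.

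The arrays covered C57BL/6 mice of the line S100a5-tauGFP, in which a green fluorescent reporter is tied to S100a5, a gene of olfactory sensory neurons known to follow odor-driven activity. The 24 mice, of both sexes and aged 7 to 12 weeks, sat singly for 40 h in chambers that received clean air at 3.1 L/min. From 26 h onward they received pulses of 10 s every 20 min, of whiskey lactone (odor) or of filtered air (vehicle). Mucosa was dissociated and sorted by fluorescence in pools of 3 mice, and each of the 4 odor pools and 4 vehicle pools gave 1 array titled GFP+ and 1 titled GFP-. All groups therefore carry the reporter, and all 4 groups (titled GFP+ after odor, titled GFP- after odor, titled GFP+ after vehicle, titled GFP- after vehicle) hold 4 arrays. The study asked which genes, odorant receptors above all, differ in cells that an odor activates.

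The titles and the cell type field name the sorted fraction in opposite ways for all 16 arrays, so the fractions are called here by their titles. S100a5 itself averaged 15.24 ± 0.30 log2 units in arrays titled GFP+ and 16.58 ± 0.13 in those titled GFP- of the odor pools, and 15.28 ± 0.27 and 16.51 ± 0.19 in those of the vehicle pools (SD, n = 4 each). It was lower in arrays titled GFP+, with a difference of -1.34 ± 0.09 log2 units (SE, limma adjusted p = 2.07e-07) in odor pools and -1.23 ± 0.09 (adjusted p = 4.78e-07) in vehicle pools. If the cell type field were the correct label, every difference between fractions given here would change sign, while odor minus vehicle would keep its sign. Odor minus vehicle for S100a5 was -0.04 log2 units in arrays titled GFP+ and 0.07 in those titled GFP-.

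Potassium channels let potassium ions leave the cell and so set the resting potential, end action potentials and space them in a train. Voltage-gated subunits (shaker, shab, shaw, shal, KCNQ, EAG, ERG and ELK types) open on depolarization, calcium-activated ones open when intracellular calcium rises, and inward rectifiers and tandem-pore leak channels conduct near rest. Silent subunits form no working channel of their own but join shab-type subunits and change their gating, and auxiliary subunits bind pore subunits and alter their opening or transport. In olfactory sensory neurons, odor transduction lets in calcium at the cilia, and potassium channels of the soma and axon shape the spikes that follow.

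Short stretches of 4 promoters are shown because they hold the letters CCCNNGGG, which lie at the core of sites bound by Ebf factors, regulators of olfactory neuron genes. These are the genes that were above background in every array and had a match in a RefSeq promoter window (GRCm38.p6, 250 bases before to 50 after a start). Capitals mark the matches, and each sequence runs 5′ to 3′ on the gene's strand.
Kcnc4, chr3:107459063-107459092, minus strand: cctgctccgcgCCCCGGGGGggttgggggg
Kcnh4, chr11:100759806-100759835, minus strand: ggaaaacctgaCCCGTGGGgaggtggggcg
Kcnip4, chr5:48599679-48599708, minus strand: gtctgtcctcaCCCCGGGGGgccacccgct
Kcnmb4, chr10:116473744-116473773, minus strand: ctcggggagCCCCGGGGtgccggacgctgt
The matches began 183, 46, 15 and 241 bases before the start of Kcnc4, Kcnh4, Kcnip4 and Kcnmb4, in that order, and those of Kcnc4 and Kcnip4 are 2 overlapping ones. Windows were found for 68 of the 89 genes, 93 windows in all. The letters CCCNNGGG, searched on both strands (they read the same on each), were in 15.1% of these windows and in 13.7% of all 32851 windows. TGACGTCA, the full site of the factor Creb, was in 0 of the 93 windows against 1.79% of all, and TAATTA, the core of homeodomain sites, in 0 against 5.29%. The shares for CCCNNGGG are nearly the same, and none of these matches is evidence that a factor binds there.

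The deposited values are log2 signals. Array medians ran between 6.08 and 6.47, and the medians of the negative control features, used here as the background level, between 4.98 and 5.59. A level at or below that median is called at background. The number of potassium channel genes above background ran between 27 and 39 per array (30.3% to 43.8%), against 58.0% to 66.4% of all genes. Signals of different features are not comparable with one another, so levels are set only against the same gene in other arrays. The limits of precision are set by 4 arrays per group.

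Of the 89 genes, 24 were above background in all 16 arrays, 23 in some and 42 in none. Among all 19505 genes the counts were 10405, 3434 and 5666. The share at background in every array was thus 47.2% of the potassium channel genes and 29.0% of all genes. The 42 genes at background throughout had signals between 2.29 and 5.15 log2 units.

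Among the 15 shaker, shab, shaw and shal pore subunits, Kcna2, Kcna5, Kcna6 and Kcnc4 were above background in every array, and Kcna1, Kcna3, Kcna10, Kcnb2, Kcnd1 and Kcnd3 in some. Kcna genes code for shaker-type channels of axons, Kcnc4 for a fast shaw-type channel, and Kcnd genes for the transient shal-type current. Among the 10 silent subunits, Kcng1 and Kcns3 were above background throughout and Kcnf1 in some arrays. The 8 EAG, ERG and ELK genes had Kcnh2, Kcnh3, Kcnh4 and Kcnh7 in every array and Kcnh6 and Kcnh8 in some. Of the 3 KCNQ genes measured, Kcnq1 was above background throughout and Kcnq5 in some arrays.

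The class of 7 calcium- and sodium-activated pore genes was formed by symbol, and Kcnu1 is in it by symbol only. Kcnn1 and Kcnn2, which code for small-conductance calcium-activated channels, and Kcnu1 were above background in all 16 arrays. Kcnn3, Kcnn4 and Kcnt1 were above it in some. All 4 genes for the beta subunits of the large-conductance (BK) channel, Kcnmb1 to Kcnmb4, were above background in every array, as were the cytoplasmic beta subunit gene Kcnab2 and the calcium-binding partner gene Kcnip4. The other 10 auxiliary genes held Kcnip3 in some arrays and 9 at background throughout. Of the 15 inward rectifier genes, Kcnj2 and Kcnj5 were above background throughout, Kcnj8, Kcnj13 and Kcnj14 in some arrays, and 10 in none. Of the 14 tandem-pore leak genes, Kcnk1 and Kcnk10 were above background throughout, Kcnk3, Kcnk5, Kcnk6, Kcnk7 and Kcnk15 in some arrays, and 7 in none. Kcnq1ot1 was above background in some.

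The first question was which potassium channel genes differed between the sorted fractions of the same pools. In odor pools, 34 of the 89 genes (38.2%) passed limma's adjusted p of 0.05, against 27.5% of all genes. Of these, 27 were lower in arrays titled GFP+ (14.7% of all genes) and 7 were higher (12.8% of all genes). In vehicle pools 21 genes passed (23.6%, against 26% of all genes), 15 lower (13.6% of all genes) and 6 higher (12.3% of all genes). Of the calls, 6 in odor pools and 2 in vehicle pools were of genes at background in both fractions, for which no change of level can be read. In bulk RNA, fewer cells of a type and less RNA per cell cannot be told apart.

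The split depended on how arrays are scaled. The median difference over all genes was -0.15 log2 units in odor pools and -0.14 in vehicle pools on the deposited scale. It moved to -0.53 and -0.51 when arrays were centred on their median, to -0.02 and -0.02 with cyclic loess, and to 0.14 and 0.19 when arrays were centred on 18 mature neuron genes. The calls of potassium channel genes in odor pools were then 6 higher and 65 lower, 8 and 13, and 13 and 7, and in vehicle pools 5 and 66, 6 and 10, and 10 and 5. Calls over all 19505 genes moved as well, to 1902 higher and 12906 lower, 2922 and 1395, and 3922 and 793 in odor pools. In vehicle pools they moved to 1818 and 12539, 2792 and 1411, and 4528 and 663. Relative to the median of all genes, the median of the 89 genes was -0.13 in odor pools and -0.06 in vehicle pools on the deposited scale, and -0.14 and -0.05 with cyclic loess.

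In odor pools 7 of the genes called lower (Kcna1, Kcna6, Kcnf1, Kcng1, Kcnh5, Kcnmb3 and Kcnn2) and 6 of those called higher (Kcnj3, Kcnj13, Kcnk1, Kcnk5, Kcnk6 and Kcnn4) kept their call and direction under all 3 other scalings. In vehicle pools 5 lower calls (Kcna6, Kcnab2, Kcng1, Kcnmb3 and Kcnn2) and 5 higher ones (Kcnip3, Kcnj3, Kcnk1, Kcnk6 and Kcnn4) did so. Of these genes, Kcnh5 and Kcnj3 were at background in both fractions. In both treatments 13 genes were called lower, which is 48.1% of the odor list and 86.7% of the vehicle list. All 6 genes called higher in vehicle pools were among the 7 of odor pools. Odor and vehicle pools share no mice, but both comparisons came from the same fit and share its variance estimate. The calls are therefore not independent, and the odor calls of Kcnd1, Kcnj2 and Kcnu1 were lost without certain single vehicle pools. The matching overlap over all genes is not given here, so whether the overlap is unusual for potassium channel genes was not tested.

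Markers of other cell types moved with the fraction too. All 11 neutrophil markers were called higher in arrays titled GFP+ of both treatments, with a median difference of 8.37 log2 units in odor pools and 8.49 in vehicle pools. Their summed signal, as log2, ran between 18.70 and 20.14 in arrays titled GFP+ and between 10.31 and 12.17 in arrays titled GFP- after odor. After vehicle it ran between 19.12 and 19.79 and between 10.39 and 12.02. Mmp9 and Camp were at background in all arrays titled GFP-.

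Macrophage and monocyte markers were called higher for 10 of 11 genes in odor pools and 11 of 11 in vehicle pools, with sums of 15.17 to 17.14 in arrays titled GFP+ and 9.13 to 10.28 in arrays titled GFP- after odor. All 11 microvillar, brush and ionocyte markers were called higher in both, with sums of 13.21 to 15.07 and 10.93 to 12.48 after odor, and Chat was at background throughout. Sustentacular markers, of the supporting epithelial cells, were called higher for 7 and 8 of 10 genes. The erythroid list had 5 and 4 of 5 genes higher, the lymphocyte list 5 and 6 of 6, and the progenitor list 4 of 8 in each, with 1 lower in odor pools. Endothelial, glial and fibroblast lists had 2 of 9, 1 of 4 and 1 of 5 genes higher in each. Immature neuron markers had 5 of 10 genes higher in each, with 1 lower in vehicle pools, and 4 of 10 differences were negative in each. The summed signal of this list was not higher in arrays titled GFP+. Its median was 17.40 there and 17.51 in arrays titled GFP- after odor, and 17.40 and 17.52 after vehicle.

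Mature neuron markers were called lower for 11 of 18 genes in odor pools, with a median of -0.30 log2 units, and for 12 of 18 in vehicle pools, with a median of -0.34. Their sums ran between 21.16 and 21.33 in arrays titled GFP+ and between 21.40 and 21.46 in arrays titled GFP- after odor. These lists move in the same arrays as the potassium channel genes, and their part in the differences below was not tested.

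Kcng1, a silent subunit gene on chromosome 2, had the largest difference among the genes called lower after odor. Its log2 signals were 8.62, 9.44, 9.75 and 9.54 in arrays titled GFP+ of odor pools 1 to 4, against 10.65, 11.78, 11.51 and 11.11 in arrays titled GFP- of the same pools. In vehicle pools they were 7.94, 8.50, 8.95 and 8.93 in arrays titled GFP+, against 9.07, 9.85, 9.98 and 10.14 in arrays titled GFP-. The fractions did not overlap within either treatment. The difference was -1.93 ± 0.14 log2 units after odor (3.80-fold lower, limma adjusted p = 3.05e-07) and -1.18 ± 0.14 after vehicle (2.27-fold lower, adjusted p = 3.18e-05). It was negative in 4 of 4 pools each time, between -2.34 and -1.57 after odor and between -1.35 and -1.04 after vehicle.

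Kcnmb3, a BK channel beta subunit gene on chromosome 3, had signals of 12.72, 13.74, 13.61 and 13.33 in arrays titled GFP+ after odor, against 14.48, 15.27, 14.95 and 14.87 in arrays titled GFP-. In vehicle pools it had 12.27, 12.95, 13.05 and 12.67 in arrays titled GFP+, against 13.92, 14.33, 14.57 and 14.23 in arrays titled GFP-. No array titled GFP+ reached the lowest array titled GFP- of its treatment. The difference was -1.54 ± 0.08 log2 units after odor (2.91-fold lower, adjusted p = 1.95e-08) and -1.53 ± 0.08 after vehicle (2.88-fold lower, adjusted p = 2.33e-08). These were the smallest adjusted p values of any potassium channel gene in either comparison.

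Kcnn2, the small-conductance calcium-activated channel gene, stood at 12.00, 12.62, 12.20 and 12.13 in arrays titled GFP+ after odor, against 13.53, 13.53, 13.29 and 13.43 in arrays titled GFP-. After vehicle it stood at 11.89, 12.76, 12.19 and 12.22 in arrays titled GFP+, against 13.31, 13.66, 13.07 and 13.41 in those titled GFP-. The groups again stood apart. The difference was -1.20 ± 0.12 after odor (2.30-fold lower, adjusted p = 4.50e-06) and -1.10 ± 0.12 after vehicle (2.14-fold lower, adjusted p = 1.19e-05). Kcnn1, of the same channel type, was lower by less, with differences of -0.41 ± 0.11 (adjusted p = 0.0136) and -0.39 ± 0.11 (adjusted p = 0.0188), and lost both calls when arrays were scaled by cyclic loess or on mature neuron genes. They were also lost without odor replicate 1 (adjusted p = 0.0875) and without vehicle replicate 1 or 4 (up to 0.105). Kcnu1, put in the same class by its symbol only, was called lower after odor at -0.68 ± 0.23, negative in 3 of 4 pools (adjusted p = 0.0439). That call was lost without odor replicate 1, 3 or 4 or vehicle replicate 2, 3 or 4 (up to 0.238). The class of 7 calcium- and sodium-activated pore genes thus had 3 lower and 1 higher after odor and 2 lower and 1 higher after vehicle, and mature neuron centring left 1 lower and 1 higher in each. On the deposited scale 14.7% and 13.6% of all genes were called lower, and 12.8% and 12.3% higher.

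Kcnc4, the shaw-type channel gene, had signals of 15.53, 15.88, 15.73 and 15.70 in arrays titled GFP+ after odor, against 16.05, 16.10, 16.19 and 15.81 in arrays titled GFP-. Vehicle pools gave 15.50, 15.51, 15.47 and 15.61 in arrays titled GFP+, against 15.86, 15.86, 15.92 and 15.88 in those titled GFP-. The fractions overlapped after odor and stood apart after vehicle. The difference was small, -0.33 ± 0.08 after odor (1.25-fold lower, adjusted p = 0.00579) and -0.36 ± 0.08 after vehicle (1.28-fold lower, adjusted p = 0.00322). Both calls were lost when arrays were centred on mature neuron genes, and that after odor also without a variance trend (adjusted p = 0.0622).

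**Figure D1:**
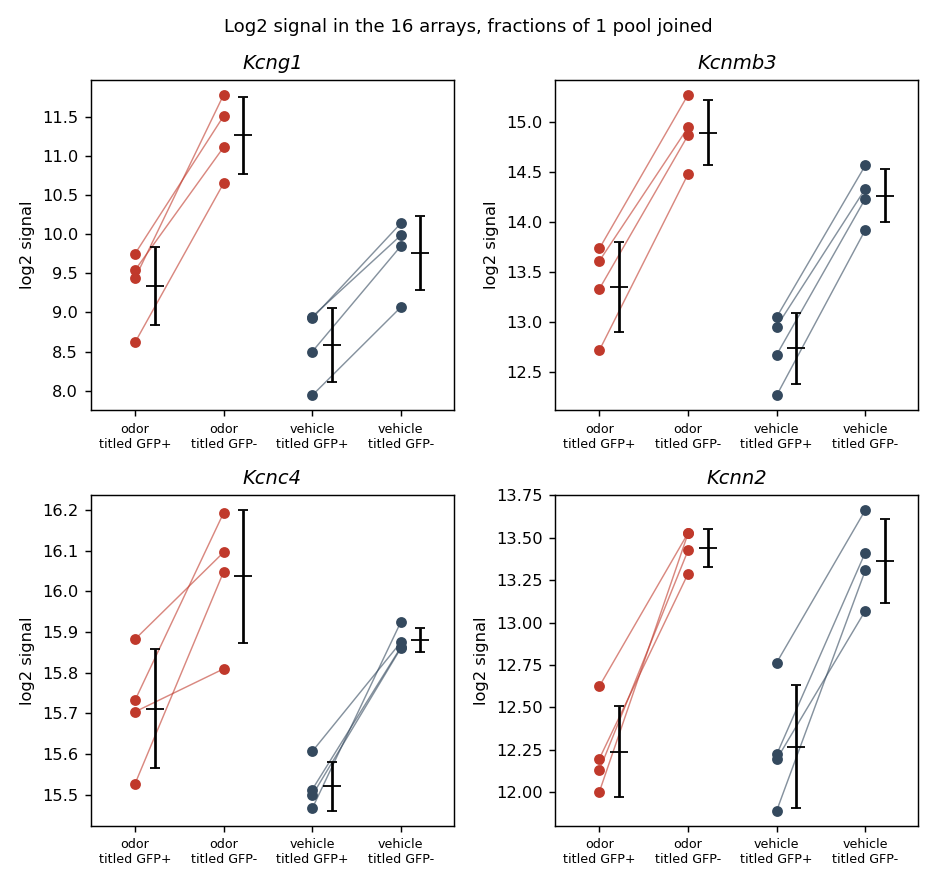
Log2 signal (y axis) of Kcng1, Kcnmb3, Kcnc4 and Kcnn2 in each of the 16 arrays, in 4 groups by title fraction and treatment. Points are arrays, thin lines join the fractions of a pool, and black marks give the mean ± SD (n = 4). Every line has its lower end in the array titled GFP+. The means of Kcng1 and Kcnmb3 also lie higher in odor pools, a difference not called in the unpaired fit. Odor and vehicle arrays of these genes overlap, except for Kcng1 in arrays titled GFP-.

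Among the shaker-type genes, Kcna6 was lower in arrays titled GFP+ in every pool. It had 10.16, 10.38, 10.63 and 10.27 log2 units in arrays titled GFP+ after odor, against 11.08, 11.15, 11.64 and 11.19 in arrays titled GFP-, and 10.44, 10.32, 10.22 and 10.29 in arrays titled GFP+ after vehicle, against 11.17, 10.88, 11.16 and 10.91 in those titled GFP-. The difference was -0.90 ± 0.11 after odor (1.87-fold lower, adjusted p = 2.87e-05) and -0.71 ± 0.11 after vehicle (1.64-fold lower, adjusted p = 0.000264). Kcna1, a close relative, lay nearer to background, at 4.40, 5.60, 4.91 and 5.22 in arrays titled GFP+ after odor, against 6.09, 6.09, 5.91 and 6.16 in arrays titled GFP-. It was above background in 1 of the 4 arrays titled GFP+ and in all 4 titled GFP-. Its difference was -1.03 ± 0.20 after odor (adjusted p = 0.00188) and -0.60 ± 0.20 after vehicle (adjusted p = 0.0440), the second lost without any 1 vehicle pool or without odor replicate 3 or 4 (adjusted p 0.0552 to 0.122). In the whole class of shaker, shab, shaw and shal genes, 8 of 15 were called lower and 0 higher after odor, and 3 lower and 0 higher after vehicle. Of all genes, 14.7% and 13.6% were called lower. The class medians were -0.37 and -0.34 log2 units, against -0.15 and -0.14 over all genes, and centring on mature neuron genes left 2 and 1 genes lower with medians of -0.08 and 0.00. The other calls after odor were Kcnd3 (-0.77 ± 0.21), Kcnc2 (at background), Kcnd1 (at least 1.03-fold lower), Kcna5 (-0.38) and Kcna2 (-0.36). Those of Kcnd3 (without odor replicate 1, 2 or 4, adjusted p up to 0.0649), Kcna2 (without 1 or 3, up to 0.159) and Kcnd1 (without any odor pool or vehicle replicate 2 or 4, up to 0.154) were lost with 1 pool left out.

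The silent subunit class had 5 of 10 genes lower and 0 higher after odor and 3 lower and 0 higher after vehicle, with medians of -0.32 and -0.35 log2 units. Over all genes, 14.7% and 13.6% were called lower, with medians of -0.15 and -0.14. In this class 7 genes after odor and 8 after vehicle were at background in both fractions, with 2 and 1 of the calls among them. Mature neuron centring left 2 and 1 lower. Besides Kcng1, Kcns3 differed by -0.27 ± 0.08 after odor (adjusted p = 0.0250, lost without odor replicate 1, 2 or 3, up to 0.105) and by -0.33 ± 0.08 after vehicle (adjusted p = 0.00903, lost without vehicle replicate 1, 0.0537). Its differences under mature neuron centring were 0.02 and 0.00. Kcnf1 was called after odor (-1.09 ± 0.23, adjusted p = 0.00279), with 4.30, 3.91, 3.69 and 4.16 in arrays titled GFP+, all at background, and 4.87, 5.42, 5.48 and 4.65 in arrays titled GFP-, 2 of them above it. Kcnv1 and Kcnv2 after odor and Kcng4 after vehicle were called at signals that never left background, and each lost its call with 1 pool left out (adjusted p up to 0.158, 0.159 and 0.0510).

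Among the EAG, ERG and ELK genes, 4 of 8 were called lower after odor and 3 after vehicle, with none higher and class medians of -0.46 and -0.37. The shares of all genes called lower were 14.7% and 13.6%, and the medians of all genes -0.15 and -0.14. Of the 8 genes, 2 after odor and 3 after vehicle were at background in both fractions. Centring on mature neuron genes gave 1 lower call after odor (Kcnh5) and 0 after vehicle, and 1 higher call after odor of a gene not called on the deposited scale, Kcnh1, which was at background in all 16 arrays. Kcnh3, an ELK-type gene, had 10.54, 10.23, 10.62 and 10.57 log2 units in arrays titled GFP+ after odor, against 11.05, 11.11, 11.02 and 10.96 in arrays titled GFP-. The vehicle arrays gave 10.57, 10.85, 10.44 and 10.13 in arrays titled GFP+, against 11.18, 11.21, 11.34 and 11.13 in those titled GFP-. No values overlapped. The difference was -0.54 ± 0.13 (adjusted p = 0.00790) after odor and -0.71 ± 0.13 (adjusted p = 0.00133) after vehicle. Kcnh2, the ERG-type gene known for ending the heart's action potential, differed by -0.47 ± 0.13 (adjusted p = 0.0136, lost without odor replicate 1, 2 or 3, up to 0.0652) and -0.65 ± 0.13 (adjusted p = 0.00194). Kcnh4 differed by -0.38 ± 0.11 and -0.37 ± 0.11, the second negative in 3 of 4 pools, and both calls were lost without replicate 1, 2 or 3 of their treatment (adjusted p up to 0.0975 and 0.0952). Kcnh5 was called after odor (-0.97 ± 0.18) at background. None of the 3 KCNQ genes passed the test. Kcnq1 differed by -0.28 after odor (adjusted p = 0.154) and -0.20 after vehicle (adjusted p = 0.311).

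The auxiliary class was split, with 6 of 16 genes lower and 1 higher after odor, and 3 lower and 1 higher after vehicle. The shares of all genes called lower were 14.7% and 13.6%. Centring on mature neuron genes gave 1 lower and 4 higher after odor, and 2 lower and 2 higher after vehicle. In this class 9 genes were at background in both fractions under each treatment. Kcnab2 had 14.99, 15.62, 15.15 and 15.46 log2 units in arrays titled GFP+ after odor, against 15.84, 15.74, 15.89 and 15.71 in arrays titled GFP-. Its values in vehicle pools were 15.02, 14.93, 15.41 and 15.42 in arrays titled GFP+, against 15.70, 15.43, 16.16 and 15.87 in those titled GFP-. The fractions stood apart under both treatments, by a small margin. The difference was -0.49 ± 0.11 (adjusted p = 0.00437) and -0.59 ± 0.11 (adjusted p = 0.00127). The Kcnab2 call after odor was lost when arrays were centred on mature neuron genes (limma adjusted p = 0.0941). The 4 BK beta subunit genes gave unlike differences. Beside the -1.54 and -1.53 of Kcnmb3, Kcnmb2 differed by -0.28 ± 0.08 (adjusted p = 0.0145) after odor and -0.26 ± 0.08 (adjusted p = 0.0255) after vehicle, with 0.01 and 0.08 under mature neuron centring. Its calls were lost without odor replicate 1 or 3 (adjusted p up to 0.0657) and without vehicle replicate 1, 2 or 4 (up to 0.102). Kcnmb1 was called after odor (-0.58 ± 0.18, adjusted p = 0.0323), a call lost without any 1 odor pool (up to 0.0999). Kcnmb4 differed by 0.01 (95% interval -0.34 to 0.36) and -0.02 (-0.37 to 0.33). Kcnip4 was called lower after odor (-0.31 ± 0.08), though not without odor replicate 3 (adjusted p = 0.0614), and Kcnab1 was called there at background.

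After odor, 7 genes were called higher in arrays titled GFP+, and 4 of them (Kcnj3, Kcnk5, Kcnk6 and Kcnn4) were at background in all arrays titled GFP-. Kcnn4 codes for the intermediate-conductance calcium-activated channel, best known from red blood cells, lymphocytes and secretory epithelia. It had 6.95, 6.01, 7.62 and 5.83 log2 units in arrays titled GFP+ after odor, against 4.26, 3.97, 4.36 and 3.96 in arrays titled GFP-. In vehicle pools it had 6.30, 5.14, 5.98 and 5.85 in arrays titled GFP+, against 4.02, 4.07, 4.42 and 3.46 in those titled GFP-. Arrays titled GFP+ were at least 2.48-fold brighter after odor (difference 2.46 ± 0.27, adjusted p = 1.25e-05) and at least 1.24-fold brighter after vehicle (1.83 ± 0.27, adjusted p = 0.000205). Such a bound is given for a gene at background in every array of the dimmer group, and sets the bright group's mean against the background median.

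The 14 tandem-pore leak genes gave 3 calls higher in each treatment and 1 lower, Kcnk7 after vehicle. Of all genes, 12.8% were called higher after odor and 12.3% after vehicle. Kcnk1 was measured in both fractions, with 8.46, 7.47, 7.26 and 7.70 log2 units in arrays titled GFP+ after odor, against 6.46, 5.95, 5.85 and 6.40 in arrays titled GFP-. Vehicle pools gave 8.67, 7.85, 8.23 and 7.34 in arrays titled GFP+, against 6.78, 6.49, 6.88 and 5.58 in those titled GFP-. The groups did not overlap. The difference was 1.55 ± 0.18 after odor (2.94-fold higher, adjusted p = 2.38e-05) and 1.59 ± 0.18 after vehicle (3.01-fold higher, adjusted p = 2.10e-05).

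Kcnk5, known from epithelia, had 5.85, 4.84, 5.89 and 5.79 in arrays titled GFP+ after odor, against 3.91, 4.28, 4.02 and 4.19 in arrays titled GFP-. It was at least 1.23-fold higher there (1.49 ± 0.24, adjusted p = 0.000446). The vehicle arrays gave 6.10, 4.91, 4.87 and 4.99 in arrays titled GFP+, against 4.80, 4.00, 4.58 and 3.98 in those titled GFP-, with a difference of 0.88 ± 0.24 (adjusted p = 0.0181) and no fold that background allows. That call was lost without vehicle replicate 1, 2 or 4 (adjusted p 0.0549 to 0.0969). Kcnk6 had 6.29, 5.11, 5.42 and 5.02 in arrays titled GFP+ after odor, against 4.76, 4.54, 4.40 and 4.22 in those titled GFP-, at least 1.13-fold higher (adjusted p = 0.00867). After vehicle it had 6.23, 5.08, 5.31 and 5.67 in arrays titled GFP+, against 4.46, 4.81, 4.53 and 4.55 in those titled GFP-, at least 1.04-fold higher (adjusted p = 0.00893). The calls of Kcnk6 were lost without replicate 1 of the treatment concerned (adjusted p = 0.0572 and 0.0649). Kcnk7 after vehicle had 5.29, 4.74, 5.70 and 5.59 in arrays titled GFP+, against 5.86, 5.94, 6.41 and 6.01 in those titled GFP-, a difference of -0.73 ± 0.20 (adjusted p = 0.0187, lost without vehicle replicate 2 or 3, up to 0.0989). Kcnk10, above background throughout, did not pass the test between fractions, at 0.11 (95% interval -0.16 to 0.37) after odor and 0.21 (-0.05 to 0.47) after vehicle.

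Kcnip3, a calcium-binding protein gene of the Kv channel interacting family, had 6.38, 5.78, 6.63 and 6.54 in arrays titled GFP+ after odor, against 5.89, 5.29, 5.36 and 5.27 in arrays titled GFP-. After vehicle it had 6.37, 5.69, 6.54 and 6.26 in arrays titled GFP+, against 5.10, 5.07, 5.15 and 5.77 in those titled GFP-. Single arrays of the fractions overlapped in both treatments. The difference was 0.88 ± 0.22 (adjusted p = 0.0104, lost without odor replicate 3 or 4, up to 0.0643) and 0.94 ± 0.22 (adjusted p = 0.00756). Kcnj13, an inward rectifier known from epithelia, passed the test after odor and not after vehicle. It had 7.63, 5.44, 6.25 and 6.49 in arrays titled GFP+ after odor, against 5.30, 5.06, 5.57 and 4.09 in arrays titled GFP- (1.45 ± 0.32, adjusted p = 0.00400). It was above background in all 4 arrays titled GFP+ and in 1 of the 4 titled GFP- after odor, so no fold is given. After vehicle it had 6.69, 5.47, 5.92 and 6.02 in arrays titled GFP+, against 5.93, 5.35, 5.45 and 5.16 in those titled GFP-. The other inward rectifier calls were Kcnj3, higher in both treatments at background, and Kcnj2 after odor (-0.40 ± 0.14, adjusted p = 0.0486), which lost its call without any 1 odor pool or vehicle replicate 1 or 4 (up to 0.187).

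**Figure D2:**
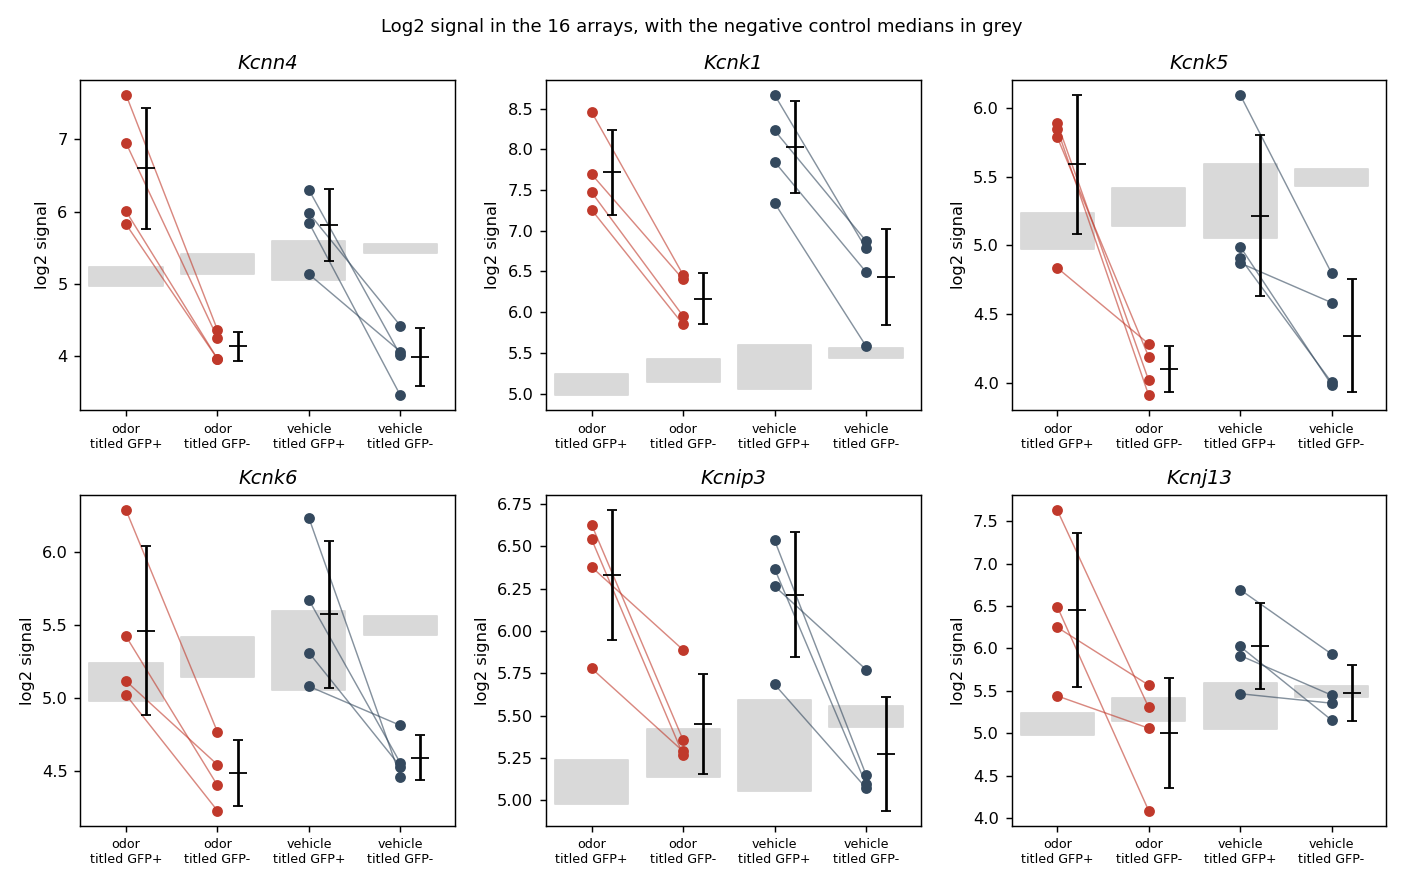
Log2 signal (y axis) of Kcnn4, Kcnk1, Kcnk5, Kcnk6, Kcnip3 and Kcnj13 in each of the 16 arrays, grouped and joined by pool as in the plot of Kcng1 and Kcnmb3, with mean ± SD in black (n = 4). Each group has its own grey band, which spans the negative control medians of its 4 arrays. Over all arrays these medians ran between 4.98 and 5.59. Kcnk1 stays above the bands in every group, and the arrays titled GFP- of Kcnn4, Kcnk5 and Kcnk6 lie below those of their groups.

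Genes outside the Kcn symbols that bind or traffic potassium channels gave 5 of 16 calls lower and 0 higher in each treatment, with medians of -0.23 and -0.30 log2 units. Amigo1, a membrane partner of shab-type channels, differed by -0.73 ± 0.13 after odor (adjusted p = 0.000833) and -0.71 ± 0.13 after vehicle (adjusted p = 0.00118). Dlg4, a scaffold of shaker-type channels, differed by -0.40 ± 0.11 and -0.53 ± 0.11. Of these 16 genes, 10 after odor and 9 after vehicle were at background in both fractions. Other cation channels of excitability gave 6 of 20 calls lower after odor and 7 after vehicle, with 0 higher and medians of -0.25 and -0.37. Of these 20 genes, 6 after odor and 6 after vehicle were at background in both fractions, and 1 of those was called after odor. Beside both lists, 14.7% and 13.6% of all genes were called lower, with medians of -0.15 and -0.14. Both lists were read on the deposited scale only. Scn4b, a sodium channel beta subunit gene, differed by -0.89 ± 0.08 and -0.92 ± 0.08, and Hcn2, a gene of the hyperpolarization-activated current, by -0.46 ± 0.07 and -0.58 ± 0.07.

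**Figure D3:**
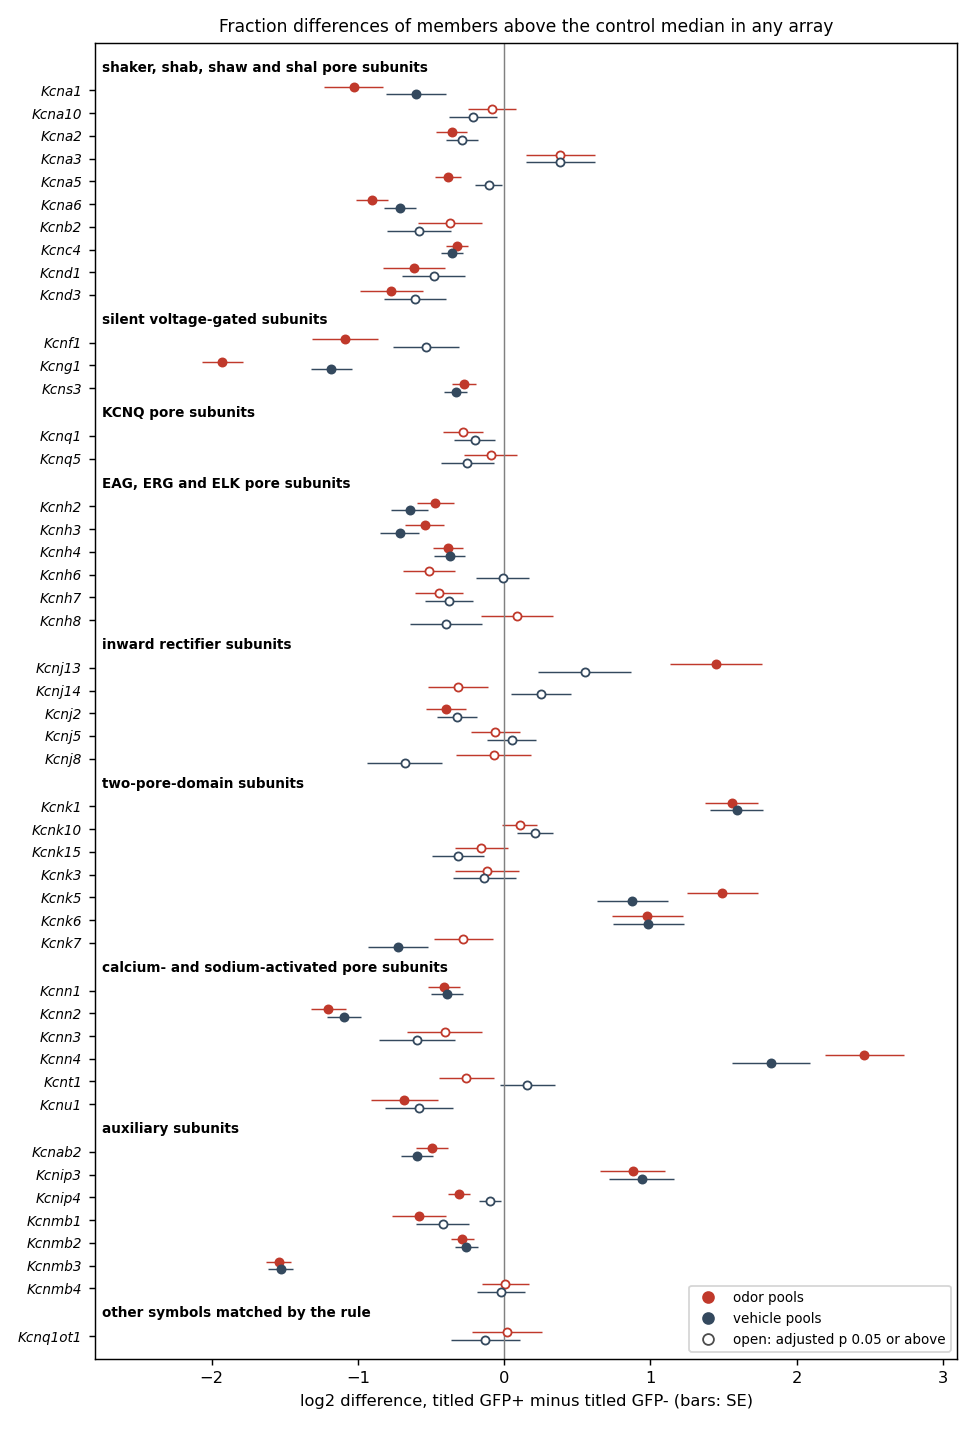
Difference between fractions, titled GFP+ minus titled GFP- (x axis, log2 units, ± SE), for the 47 potassium channel genes above background in at least 1 array, by class, in odor pools and in vehicle pools on the deposited scale. Filled points passed an adjusted p of 0.05. Kcng1, Kcnmb3 and Kcnn2 lie farthest left in both treatments, and Kcnn4 and Kcnk1 farthest right. Smaller differences, such as those of Kcnmb2 and Kcns3, change sign when arrays are centred on mature neuron genes.

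Whether the difference between fractions itself depended on odor was tested as the difference of both contrasts. Of the 89 genes, 0 passed the adjusted p of 0.05 in limma, and 1 of all 19505 genes did (0.00513%). At an unadjusted p under 0.05 there were 5 potassium channel genes (5.62%), against 3.27% of all genes. All but Kcng1 were at background in every array. Kcng1 had the smallest unadjusted p of the 89, with a difference of -0.75 ± 0.20 log2 units (95% interval -1.18 to -0.31, limma adjusted p = 0.999). Next came Kcnh5 (-0.89) and Kcnab1 (-0.70), both at background. In the other direction the 3 smallest were Kcne3 and Kcng4, both at background in all 16 arrays, and Kcnj13 (0.90 ± 0.45), above background in 1 of 4 arrays titled GFP- in each treatment, all with the same adjusted p. For Kcnmb3 the difference was -0.01 ± 0.12 (95% interval -0.27 to 0.25), and for Kcnc4 it was 0.03.

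The last question was whether odor changed the level of these genes within a fraction. In the fit with pools as replicates and no pairing between odor and vehicle pools, 0 of 89 genes passed in arrays titled GFP+ and 0 in those titled GFP-, against 0.00513% and 0% of all genes. At an unadjusted p under 0.05 there were 9 genes (10.1%, against 4.88% of all genes) in arrays titled GFP+ and 10 (11.2%, against 5.88%) in those titled GFP-. Of the 9, Kcne2, Kcng4 and Kcnh5 were at background in every array, so no change can be read for them. The same holds for Kcnab1, Kcng2, Kcnh5 and Kcnk18 of the 10. The median difference of the 89 genes was -0.02 and 0.00 log2 units, against 0.01 and 0.00 over all genes.

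Arrays with the same replicate number tended to deviate from their group means together. The correlation was over 0.1 for 4 of 4 numbers in arrays titled GFP- and for 3 of 4 in those titled GFP+. Odor and vehicle were therefore also compared within numbers, a pairing that the labels do not state. In this fit, with the replicate number as a replicate block, 2 of the 89 genes passed in arrays titled GFP-, against 0.0769% (15) of all genes, and 0 in arrays titled GFP+, against 0.0103% (2). The 2 genes were Kcng1 and Kcnmb3. In the same arrays the log2 of the summed signal of mature neuron markers ran between 21.40 and 21.46 after odor and between 21.40 and 21.43 after vehicle, and that of neutrophil markers between 10.31 and 12.17 after odor and between 10.39 and 12.02 after vehicle. Sustentacular markers had lower mean values after odor for 9 of 10 genes (median difference -0.26), with sums of 14.05 to 15.27 after odor and 14.49 to 16.06 after vehicle. Fibroblast markers had lower means for 5 of 5 (median -0.25), with sums of 7.05 to 7.45 after odor and 7.42 to 7.76 after vehicle. Of these 5 genes, 3 (Col1a2, Col3a1 and Lum) were at background in all arrays titled GFP-, so no change can be read for them. In arrays titled GFP+ the sustentacular means were lower after odor for 10 of 10 genes (median -0.34) and the erythroid means higher for 5 of 5 (median 1.16). None of these marker genes passed limma's adjusted p in the unpaired fit, and the part of these cell types in the calls was not tested. At an unadjusted p under 0.05 the paired fit had 12 of the 89 genes in arrays titled GFP- (13.5%, against 9.75% of all genes) and 6 in those titled GFP+ (6.74%, against 5.42%). Kcnab1, Kcnd2, Kcng2 and Kcnh5 of the 12, and Kcng4 of the 6, were at background in every array.

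Kcng1 in arrays titled GFP- had 10.65, 11.78, 11.51 and 11.11 log2 units after odor, against 9.07, 9.85, 9.98 and 10.14 after vehicle. The groups did not overlap, which held for 2.44% of all genes in this direction, and for Kcng1, Kcnh6 and Kcnk10 among the 89. Within numbers 1 to 4 the differences were 1.58, 1.93, 1.52 and 0.97. The mean difference was 1.50 log2 units, 2.83-fold higher, with an SE of 0.28 unpaired (limma adjusted p = 0.157) and 0.15 with the replicate block (adjusted p = 0.00201). In arrays titled GFP+ Kcng1 had 8.62, 9.44, 9.75 and 9.54 after odor, against 7.94, 8.50, 8.95 and 8.93 after vehicle. These groups overlapped, although odor was higher within each of the 4 numbers, by 0.68, 0.94, 0.80 and 0.61. The mean difference of 0.76 did not pass, with an adjusted p of 1 unpaired and 0.515 with the replicate block.

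Kcnmb3 in arrays titled GFP- had 14.48, 15.27, 14.95 and 14.87 after odor, against 13.92, 14.33, 14.57 and 14.23 after vehicle. The groups overlapped, and odor was higher within each number, by 0.56, 0.94, 0.38 and 0.64. The difference was 0.63 ± 0.20 unpaired (adjusted p = 0.706) and 0.63 ± 0.10 with the replicate block (adjusted p = 0.0458). That call was narrow: the paired adjusted p was 0.0650 with median centring, 0.0504 with cyclic loess and 0.458 without a variance trend, and 0.256, 0.207 and 0.105 without numbers 1, 2 and 4. In arrays titled GFP+ the differences within numbers were 0.45, 0.78, 0.56 and 0.66, with a mean of 0.61 (adjusted p = 0.946 unpaired and 0.294 with the replicate block). The paired call of Kcng1 held without each number in turn (1.36 to 1.68 log2 units, adjusted p 0.00126 to 0.0394) and was lost without a variance trend (adjusted p = 0.137).

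Kcnk10, a tandem-pore leak gene, was higher after odor in all 8 comparisons of the same number and fraction, but did not pass in either. It had 13.76, 14.08, 14.00 and 14.17 log2 units after odor in arrays titled GFP+, against 13.44, 13.60, 13.83 and 13.60 after vehicle. In arrays titled GFP- it had 13.76, 13.98, 14.10 and 13.75 after odor, against 13.56, 13.51, 13.15 and 13.41 after vehicle, without overlap. The difference was 0.39 ± 0.12 in arrays titled GFP+ (adjusted p = 0.921 unpaired, 0.680 with the replicate block) and 0.49 ± 0.12 in arrays titled GFP- (adjusted p = 0.466 and 0.203).

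Kcnc4 differed by 0.19 in arrays titled GFP+ (adjusted p = 1 unpaired and 0.922 with the replicate block), higher within 4 of 4 numbers, and by 0.16 in arrays titled GFP- (adjusted p = 0.870 and 0.565), higher within 3 of 4. The genes with the smallest p among those lower after odor in arrays titled GFP+ were Kcne2 (-0.35), Kcnh5 (-0.38) and Kcns1 (-0.29), all at background. Kcnn2, with one of the largest differences between fractions, was not among the genes at an unadjusted p under 0.05 in either fraction. Groups did not overlap for 2 genes with higher and 1 gene with lower values after odor among arrays titled GFP+ (2.25% and 1.12%, against 1.34% and 1.04% of all genes). Among arrays titled GFP- this held for 3 higher and 5 lower genes (3.37% and 5.62%, against 2.44% and 2%). Of the 5 lower genes, Kcna7, Kcne2, Kcne4 and Kcng2 were at background in every array, so no change can be read for them. The same holds for Kcnh5, the lower gene among arrays titled GFP+.

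**Figure D4:**
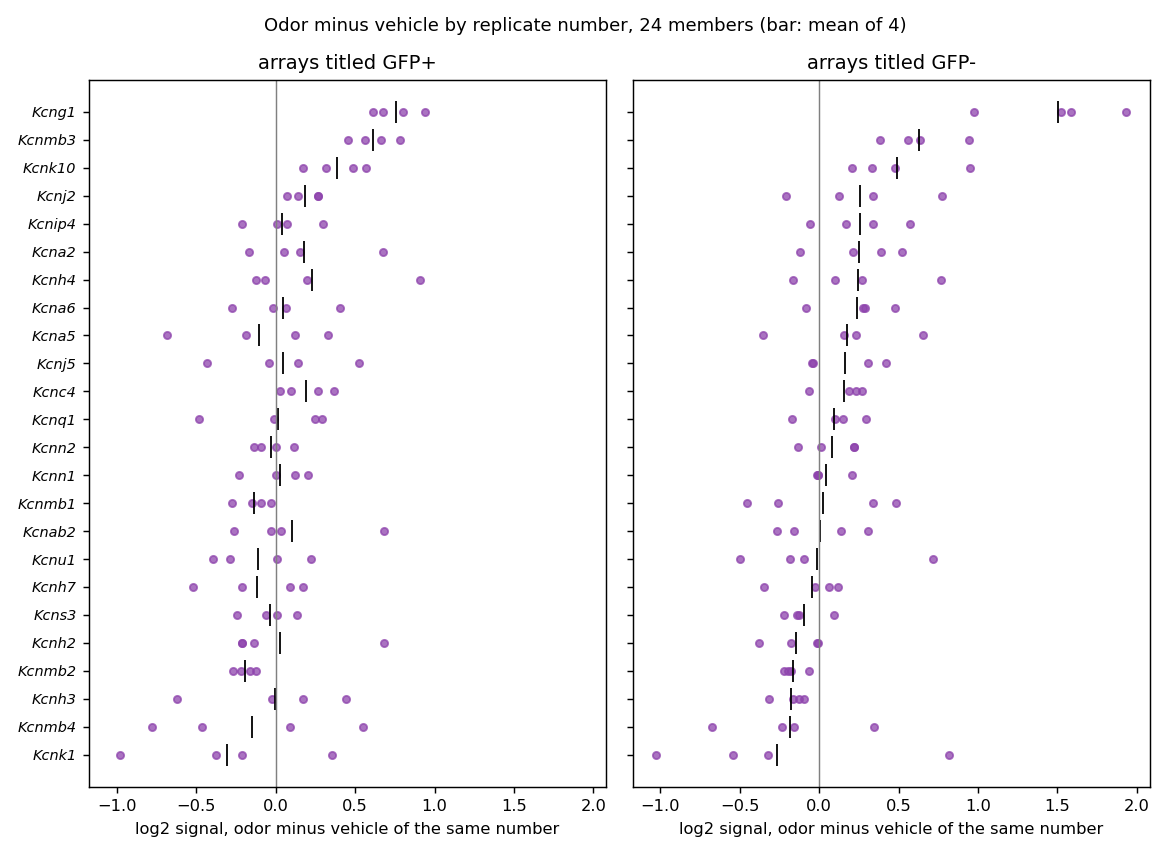
Odor minus vehicle (x axis, log2 units) within each replicate number, for the 24 potassium channel genes above background in all 16 arrays, in arrays titled GFP+ and titled GFP-. Each point is 1 number. The 4 points of Kcng1, Kcnmb3 and Kcnk10 lie right of 0 in both panels, with Kcng1 in arrays titled GFP- farthest, at 0.97 to 1.93.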

How the data were processed

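Expression was measured on 16 Affymetrix arrays of cRNA from 50 to 100 ng of total RNA. The deposited values are log2 signals in 1 table, which the authors made in Affymetrix Expression Console (named in the submitters' processing notes). How they were normalized or background-corrected is not given in the sources used here, and their range showed the log scale. Of 28846 features, 19572 carried 1 gene symbol, 0 several and 9274 none, and 19505 genes remained after the brightest feature of each gene was kept (67 further features set aside). All were matched by gene number to RefSeq GRCm38.p6. No gene was filtered out for low signal.

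Groups and replicate numbers came from the sample titles, and replicates are separate pools of 3 mice. limma 3.58.1 in R 4.3.3 (lmFit, eBayes with a variance trend, 2-sided, Benjamini-Hochberg over all 19505 genes, threshold 0.05) compared fractions within pools, with a term for each pool (6 residual degrees of freedom), and odor with vehicle treating pool as random (correlation 0.164, 12 degrees) or with the replicate number as a block. The labels say that treatments ran at the same time, not that a number was shared. Deviations of same-numbered odor and vehicle arrays correlated at 0.198 to 0.279 in arrays titled GFP- (4 of 4 over 0.1). In arrays titled GFP+ they correlated at 0.0787 to 0.410 (3 of 4 over 0.1). Each pool gave both fractions, so a number shared between treatments would pair the same pools in both. The paired fits of both fractions assume such a pairing, for which these correlations are a hint only.

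Genes named with full statistics were Kcng1, Kcnmb3 and Kcnc4 and, in each contrast between fractions, the 10 largest differences in each direction among calls of 1 sign in all 4 pools. For odor and the difference of contrasts they were the calls or the 3 smallest p in each direction. The genes, the marker lists, the partner list and the list of other cation channels were chosen with earlier results of these data known. The code was tested on simulated data.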

Additional observations from a re-analysis of the deposited data

Results flagged for a closer look

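In groups of 4 arrays, a lone highest or lowest array was looked for in 160 groups (40 potassium channel genes by 4 groups), and 6 stood out. Chance alone would give about 1 in 20 groups. Kcnmb2 after vehicle had 13.28 log2 units in array 2 titled GFP+, against 12.95 to 12.98 in the other three, and 13.61 in array 2 titled GFP-, against 13.19 to 13.21, so both fractions of that pool stood high. Kcnk5 had 4.84 in odor array 2 titled GFP+, the only low one beside 5.79 to 5.89, and 6.10 in vehicle array 1 titled GFP+, beside 4.87 to 4.99. Kcnip3 had 5.89 in odor array 1 titled GFP-, beside 5.27 to 5.36, and 5.77 in vehicle array 4 titled GFP-, beside 5.07 to 5.15.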

How the results depend on the processing

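The number of potassium channel genes called between fractions depended on the scaling: 27 lower after odor became 65 with median centring, 13 with cyclic loess and 7 with mature neuron centring, and 15 to 26 when 1 pool was left out (15 without odor replicate 1, 16 without odor replicate 3). The 7 higher after odor became 13 with mature neuron centring. After vehicle, 15 lower became 66 with median centring and 5 with mature neuron centring, and 6 higher became 10 with the last. Over all genes, 2860 lower after odor became 12906 with median centring, 1395 with cyclic loess and 793 with mature neuron centring. There, 2502 higher after odor became 3922 with mature neuron centring. After vehicle, 2658 lower of all genes became 12539 with median centring and 663 with mature neuron centring, and 2406 higher became 4528 with the last. With mature neuron centring the differences of Kcnmb2 (0.00943 after odor, 0.0781 after vehicle) and Kcns3 (0.0221 and 0.00384) changed sign. The difference of contrasts, near 0 and not called, changed sign for Kcnc4 with mature neuron centring (-0.00758) and without odor replicate 2 (-0.00294) or 4, and for Kcnmb3 without odor replicate 1 or vehicle replicate 2 (0.0354). Leaving out 1 pool gave -0.0389 to 0.0995 for Kcnc4 and -0.0840 to 0.0585 for Kcnmb3. The cause was not tested.

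In arrays titled GFP-, odor against vehicle gave 0 calls unpaired and 2 with the replicate block. The paired count was 1 with median centring, 1 with cyclic loess, 0 without a variance trend and 1 to 2 without 1 number. The paired alternatives under other scalings were chosen after seeing the data. The replicate block changed no other call of the named genes. Without the pool term the odor contrast gave 7 higher and 23 lower, and of the 34 genes called with it 29 passed and 5 did not. Over the results of single genes and their alternatives, 1025 kept their side of the threshold, 152 lost the call, 2 gained one and 9 changed sign. The 1025 include genes that were not called and stayed so. The counts of calls given above are not part of these totals.

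With 4 arrays a group, small changes can be missed, and 42 of the 89 genes gave no signal above background, so changes in them cannot be read. The reporter pools hold many cells, and RNA per cell was not measured.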
